A study of Mus musculus with 56 samples.

Results

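The lysosomal genes described here are a list of 32 protein-coding genes. They were grouped by function, and the list was chosen with earlier results of these data known. All 32 were found among the 45513 gene rows of the liver count files and passed the filter on low counts. They comprised 8 proteases, 5 glycosidases, 7 lipid hydrolases and lipid-handling proteins, 6 membrane proteins, 2 proton pump subunits, 3 macrophage-associated genes and 1 transcription factor. Their RNA was measured by poly(A) RNA sequencing in livers of 56 mice, 8 in each of 7 groups, in a study of the cardiovascular effects of the BCR-ABL1 tyrosine kinase inhibitors imatinib, nilotinib and ponatinib.

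All groups were female APOE*3Leiden.CETP transgenic mice, which carry a human APOE variant and human CETP and are used as a model of human-like lipoprotein metabolism. The mice were 9 to 14 weeks old at the start of the experiment and ate a Western-type diet with 0.15% cholesterol and 15% cacao butter, for 3 weeks before treatment and during it. Control mice (Ctrl) received the vehicle, 5% carboxymethyl cellulose, by gavage. The treated groups received 150 mg/kg imatinib 2 times a day (Ima_150), 10 or 30 mg/kg nilotinib 1 time a day (Nilo_10, Nilo_30), 3 or 10 mg/kg ponatinib 1 time a day (Pona_3, Pona_10), or vehicle gavage with 0.12 to 0.20% L-NAME in the drinking water (L-NAME). L-NAME is an inhibitor of nitric oxide synthases. All mice but those on imatinib received a second gavage of vehicle each day. The kinase inhibitors were given for 16 weeks, and the duration of the L-NAME treatment was not given in the sources used here.

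The lysosome is the acidic organelle in which proteases, glycosidases and lipases break down material taken up from outside the cell or delivered by autophagy. Its hydrolases work at low pH maintained by a proton pump, cholesterol released from lipoproteins leaves it through the NPC1 and NPC2 proteins, and the transcription factor TFEB induces many of its genes. In the liver, hepatocytes and resident macrophages (Kupffer cells) both hold many lysosomes, and lipid-loaded macrophages are known for high levels of some lysosomal products such as GPNMB.

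The libraries held 5342379 to 97473341 reads assigned to genes, with a median of 7570240, and the deepest library was 1 mouse of the L-NAME group. Between 42540 and 757277 reads per library fell on the 32 genes. The share of reads that the counting program placed outside annotated genes was 7.55 to 8.67% in control and 8.89 to 15.2% in Pona_10, and it was above all control mice in all 8 mice of Nilo_10, Nilo_30, Pona_10 and L-NAME, in 6 of 8 mice of Ima_150 and in 3 of 8 mice of Pona_3. In every one of the 56 livers, hepatocyte markers such as Alb, and the Kupffer cell markers Clec4f, Vsig4 and Adgre1, were detected. Values below are CPM, the reads on a gene relative to the total of its library after scaling by trimmed mean of M values (TMM), and a gene is said to rise or fall where its adjusted p in edgeR's quasi-likelihood test over all 14314 tested genes was below 0.05.

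Lysosomal genes took a smaller share of the reads in the livers of Ima_150 and Pona_10 mice, and to a lesser extent of Pona_3 mice. They accounted for 0.719 to 1.02% of the reads on genes in control, with a median of 0.828%. The share was 0.612 to 0.689% in Ima_150, where all 8 mice lay below all 8 control mice. It was 0.562 to 0.795% in Pona_10, where 6 of 8 mice lay below all control mice. It was 0.651 to 0.802% in Pona_3 (median 0.739%), where 4 of 8 mice lay below all control mice. In L-NAME the median was 0.773%, with 2 of 8 mice below all control mice, and in Nilo_10 and Nilo_30 the medians of 0.799 and 0.827% were within the control range. These shares are of unscaled reads, so they also depend on the level of other genes. The summed level of 8 hepatocyte markers was 116533 to 145868 CPM in Pona_3 and 75246 to 138830 CPM in control (two-sided exact permutation test, p = 0.00591). After TMM scaling, the median log2 fold change of the members in Pona_3 was -0.07. The part of other genes in the lower share of Pona_3 was not tested.

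In Ima_150, 9 of 32 members fell and none rose, where 4.58% of all tested genes fell and 5.69% rose. In Pona_10, 11 members fell and 2 rose, where 5.87% of all genes fell and 7.24% rose. In L-NAME, 3 fell and 3 rose, beside 6.24% and 5.55% of all genes. In Nilo_30, 2 fell and none rose, beside 3.43% and 2.34%. In Pona_3, 1 fell, beside 0.0419% of all genes. In Nilo_10 none passed the test, beside 0.943% of all genes that fell and 0.468% that rose, and 1 member had an unadjusted p below 0.01, beside 5.97% of all genes. DESeq2 called 10 members in Ima_150, 15 in Pona_10, 6 in L-NAME, 3 in Nilo_30, 1 in Pona_3 and 0 in Nilo_10. Of all 14314 genes, DESeq2 called 944 higher and 790 lower in Ima_150, 1217 and 921 in Pona_10, and 994 and 914 in L-NAME. It called 474 and 533 in Nilo_30, 4 and 21 in Pona_3, and 170 and 189 in Nilo_10. The median log2 fold change over the 32 members was -0.30 in Ima_150, -0.23 in Pona_10, -0.12 in L-NAME, -0.07 in Pona_3 and -0.01 in both nilotinib groups, while the median over all genes stayed between -0.02 and 0.03. The 6 comparisons share the same 8 control mice. As the list was chosen with earlier results of these data known, the counts beside the shares of all genes are a description and not an independent test.

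**Figure D1:**
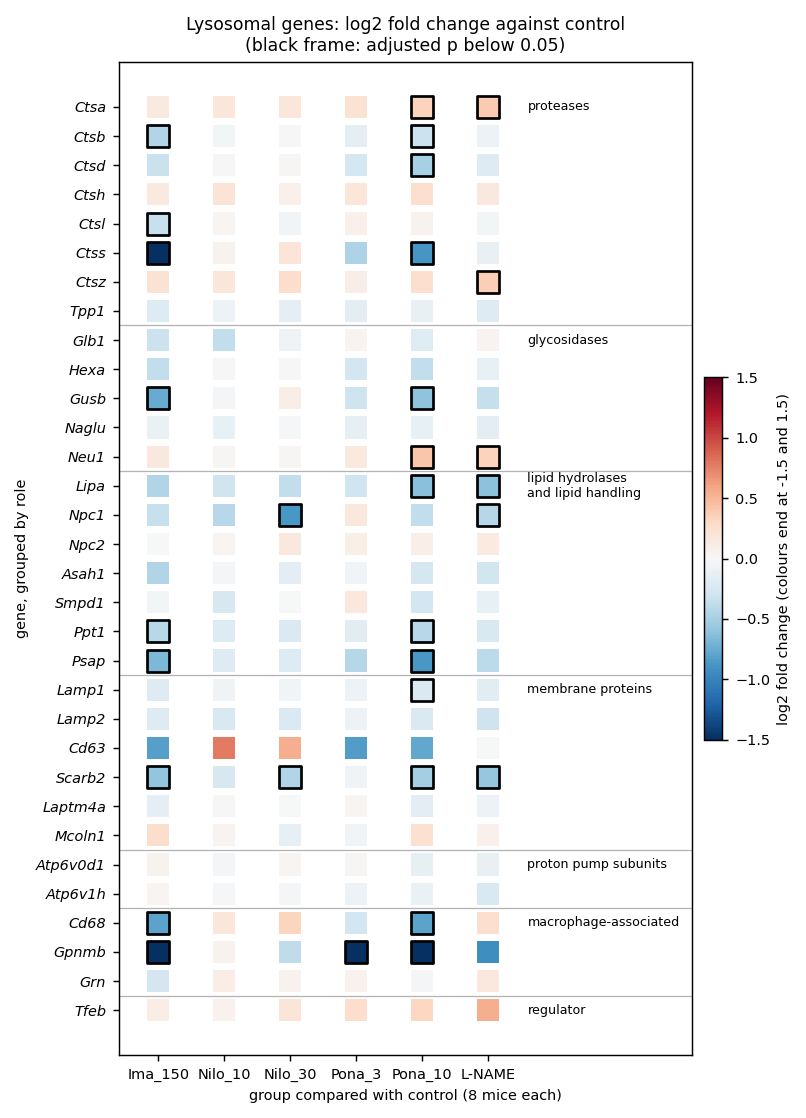
Log2 fold change of each of the 32 lysosomal genes (rows, by role) in the 6 treated groups (columns) against control, 8 mice a group. Blue squares are lower and red squares higher than control, and a black frame marks an adjusted p below 0.05. The frames are in the Ima_150 and Pona_10 columns for 9 and 13 genes, and Scarb2 is framed in 4 columns.

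Of the 32 members, 16 passed the test against control in no group, 4 in 1 group, 10 in 2 groups, Gpnmb in 3 and Scarb2 in 4. The map of log2 fold changes shows the framed genes spread over every role but the proton pump and the transcription factor. Ima_150 and Pona_10 had 8 falling members in common (Cd68, Ctsb, Ctss, Gpnmb, Gusb, Ppt1, Psap and Scarb2), which was 8 of the 9 called in Ima_150 and 8 of the 13 called in Pona_10. As both were compared with the same control mice, these 2 sets of calls are not independent of each other.

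In livers of control mice, the level per kilobase of exon was highest for Psap (346 CPM per kb), Ctsd (301) and Lamp1 (243) and lowest for Mcoln1 (5.01), Cd63 (2.24) and Tfeb (1.75). The control mice varied more among themselves in some members than in others. Gpnmb ranged from 8.79 to 259 CPM, and Lamp1 from 604 to 689 CPM. The levels per kilobase are read from a union of all annotated exons of a gene, so a long untranslated exon lowers them.

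The largest differences were those of Gpnmb, 1 of the 3 macrophage-associated genes. Gpnmb, which encodes a transmembrane glycoprotein of lipid-loaded macrophages, lies on the forward strand of chromosome 6 (chr6:49036546-49070929, GRCm38). In control it was measured at 8.79, 91.7 and 259 CPM (lowest, median and highest mouse). In Ima_150 the corresponding values were 0.298, 3.50 and 9.67 CPM, in Pona_3 they were 0, 3.36 and 44.4 CPM, and in Pona_10 they were 0.584, 3.89 and 12.9 CPM. Of 8 mice, 7 in Ima_150 and 6 in each ponatinib group lay below every control mouse, and the highest Pona_3 mouse lay well inside the control range.

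Gpnmb fell by 4.74 on the log2 scale in Ima_150 (26.8-fold lower, SE 0.79, adjusted p = 4.07e-05). It fell by 3.59 in Pona_3 (12.1-fold lower, SE 0.73, adjusted p = 0.0248) and by 4.40 in Pona_10 (21.1-fold lower, SE 0.77, adjusted p = 7.46e-05). In the 2 nilotinib groups and in L-NAME it was spread over the control range. Nilo_10 had 13.4, 63.9 and 332 CPM, Nilo_30 had 6.11, 62.7 and 206 CPM, and L-NAME had 1.63, 39.3 and 162 CPM. Their log2 fold changes were 0.05, -0.38 and -0.93, with adjusted p of 0.989, 0.841 and 0.419. The Pona_3 difference was no longer called in 9 of the 56 fits that each left out 1 mouse (adjusted p up to 0.108). Under limma voom, Gpnmb missed the threshold in all 3 groups (adjusted p up to 0.0716 in Ima_150 and 0.0929 in Pona_10). The Pona_3 call was also lost in the fit of Pona_3 and control alone, and its adjusted p over all alternative fits was up to 0.215.

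Since liver is a mixture of cells, fewer cells of a type and less RNA per cell cannot be told apart for any of these genes.

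**Figure D2:**
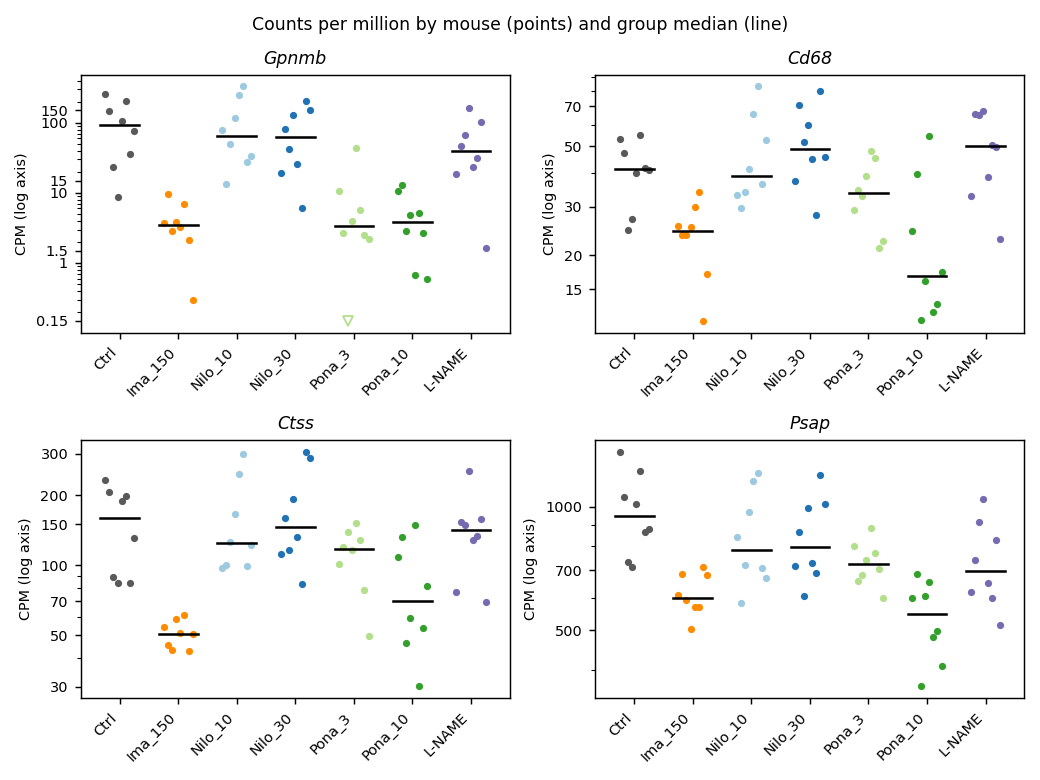
CPM (log axis) of Gpnmb, Cd68, Ctss and Psap in each of the 56 mice (points), with the median of each group of 8 as a line. The open triangle is a Pona_3 mouse with 0 reads on Gpnmb. The Ima_150 mice lie below all control mice for Ctss, and the Pona_10 mice lie below all control mice for Psap.

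Cd68, a glycoprotein of macrophage late endosomes, had 24.8, 41.4 and 54.8 CPM in control, 11.5, 24.5 and 34.1 CPM in Ima_150 and 11.6, 16.7 and 54.4 CPM in Pona_10. In Ima_150, 4 of 8 mice and in Pona_10, 6 of 8 mice were below all control mice, while the highest Pona_10 mouse reached the top of the control range. Cd68 fell by 0.80 on the log2 scale in Ima_150 (SE 0.26, adjusted p = 0.0353) and by 0.81 in Pona_10 (SE 0.26, adjusted p = 0.027). The calls were lost in 9 and 6 of the 56 fits without 1 mouse, and the Pona_10 call also in the fit of Pona_10 and control alone. The other groups overlapped with control and did not pass the test, with 29.7, 38.9 and 83.0 CPM in Nilo_10, 28.1, 48.7 and 80.0 CPM in Nilo_30, 21.2, 33.9 and 48.2 CPM in Pona_3 and 22.9, 50.2 and 67.4 CPM in L-NAME. Grn, the gene of progranulin, had log2 fold changes of -0.27 in Ima_150 and -0.03 in Pona_10 and passed the test in no group.

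Ctss, a cysteine protease that antigen-presenting cells use to process the invariant chain, changed most among the proteases. It was measured at 83.7, 159.7 and 232 CPM in control, at 42.8, 50.8 and 61.0 CPM in Ima_150 and at 30.2, 70.2 and 149 CPM in Pona_10. All 8 Ima_150 mice were below all control mice, a separation that 0.433% of all tested genes showed in that direction. It fell by 1.58 on the log2 scale in Ima_150 (2.98-fold lower, SE 0.28, adjusted p = 0.000144) and by 0.88 in Pona_10 (1.84-fold lower, SE 0.28, adjusted p = 0.0247). The Ima_150 call was kept in all 10 alternative fits. The Pona_10 call was lost in the fit of these 2 groups alone, in the fit with the share of reads outside genes, and in 6 of the 56 fits that each left out 1 mouse. In the other 4 groups the log2 fold change of Ctss lay between -0.46 and 0.20 without passing the test. It had 97.2, 124 and 301 CPM in Nilo_10, 83.0, 145 and 307 CPM in Nilo_30, 49.5, 118 and 152 CPM in Pona_3 and 69.7, 141 and 255 CPM in L-NAME, all overlapping with control.

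The other proteases moved less and in both directions. Ctsb, a cysteine protease, had 1098, 1252 and 1567 CPM in control, 792, 937 and 1157 CPM in Ima_150 and 886, 988 and 1367 CPM in Pona_10. In those groups 7 and 6 of 8 mice were below all control mice, and Ctsb fell by 0.45 (SE 0.10, adjusted p = 0.00301) and 0.32 (SE 0.10, adjusted p = 0.033) on the log2 scale. The Pona_10 call was lost in 7 of the 56 fits without 1 mouse, in the fit of Pona_10 and control alone, and without the filter on low counts. The other 4 groups were not called, with 1077, 1207 and 1623 CPM in Nilo_10, 1066, 1293 and 1554 CPM in Nilo_30, 969.6, 1194 and 1299 CPM in Pona_3 and 969, 1203 and 1534 CPM in L-NAME.

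Ctsd, the aspartic protease, fell by 0.50 in Pona_10 (SE 0.13, adjusted p = 0.00598), and its log2 fold change in Ima_150 was -0.34 (adjusted p = 0.0882). Ctsl, another cysteine protease, had 694, 798 and 1025 CPM in control and 570.2, 634 and 788 CPM in Ima_150, with 5 of 8 mice below all control mice, and fell by 0.35 on the log2 scale (SE 0.10, adjusted p = 0.019). In Pona_10 it had 772, 819 and 1264 CPM and a log2 fold change of 0.06. The remaining groups were not called either, with 645, 849 and 955 CPM in Nilo_10, 717, 781 and 915 CPM in Nilo_30, 652, 889 and 1033 CPM in Pona_3 and 573, 844 and 888 CPM in L-NAME.

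Ctsa, a carboxypeptidase that also protects the sialidase NEU1 and β-galactosidase in a complex, rose. It had 167, 186 and 219 CPM in control, 187, 238 and 299 CPM in Pona_10 and 216, 253 and 280.0 CPM in L-NAME. In Pona_10, 5 of 8 mice and in L-NAME, 7 of 8 mice were above all control mice. The log2 fold changes were 0.34 in Pona_10 (SE 0.09, adjusted p = 0.00554) and 0.39 in L-NAME (SE 0.09, adjusted p = 0.00178). In the remaining groups, which overlapped with control and were not called, Ctsa had 179.5, 218 and 233 CPM in Ima_150, 187, 215 and 238 CPM in Nilo_10, 192, 214 and 252 CPM in Nilo_30 and 197, 216 and 253 CPM in Pona_3. Ctsz, a carboxypeptidase, rose in L-NAME by 0.37 on the log2 scale (SE 0.10, adjusted p = 0.00678), with all 8 mice above all control mice, as for 0.999% of all genes. Ctsh, an aminopeptidase, and Tpp1, a tripeptidyl peptidase, passed the test in no group.

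Among the glycosidases, Gusb (β-glucuronidase) and Neu1 (the sialidase) passed the test. Gusb had 33.7, 49.2 and 65.1 CPM in control, 15.3, 27.3 and 44.1 CPM in Ima_150 and 15.1, 35.3 and 51.2 CPM in Pona_10. It fell by 0.76 (SE 0.21, adjusted p = 0.0112) and 0.60 (SE 0.20, adjusted p = 0.04) on the log2 scale, with 5 and 3 of 8 mice below all control mice, and 8 of the 56 fits without 1 mouse lost the Pona_10 call. It was not called in the other groups, which had 20.1, 45.6 and 84.1 CPM in Nilo_10, 35.3, 56.6 and 64.1 CPM in Nilo_30, 31.8, 38.6 and 54.0 CPM in Pona_3 and 19.8, 38.7 and 54.5 CPM in L-NAME.

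Neu1 had 48.1, 54.0 and 70.1 CPM in control, 43.7, 71.9 and 98.0 CPM in Pona_10 and 59.5, 71.0 and 79.4 CPM in L-NAME. In each of these groups 5 of 8 mice were above all control mice, 1 Pona_10 mouse was below them, and the highest control mouse stood apart from the other 7. Neu1 rose by 0.42 in Pona_10 (SE 0.12, adjusted p = 0.0114) and 0.35 in L-NAME (SE 0.12, adjusted p = 0.0387). The L-NAME call was lost in 13 of the 56 fits without 1 mouse and in the fit without a filter on low counts. Without a call it had 53.4, 61.0 and 69.7 CPM in Ima_150, 42.5, 57.0 and 69.8 CPM in Nilo_10, 41.2, 55.9 and 68.9 CPM in Nilo_30 and 45.6, 59.0 and 76.0 CPM in Pona_3. Glb1 (β-galactosidase), Hexa (the α subunit of β-hexosaminidase) and Naglu (α-N-acetylglucosaminidase) passed the test in no group, and Hexa had log2 fold changes of -0.36 in Ima_150 (adjusted p = 0.0857) and -0.37 in Pona_10 (adjusted p = 0.0651).

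Of the 7 genes of lipid breakdown and handling, Psap, Ppt1, Lipa and Npc1 passed the test in at least 1 group. Psap encodes prosaposin, which is cut into the saposins that help hydrolases reach sphingolipids. It had 714, 950.3 and 1363 CPM in control, 504, 599 and 714 CPM in Ima_150 and 365, 548 and 684 CPM in Pona_10. All 8 Pona_10 mice were below all control mice, which 0.503% of all genes showed, and 7 of 8 Ima_150 mice were. Psap fell by 0.87 in Pona_10 (1.83-fold lower, SE 0.15, adjusted p = 6.31e-05) and by 0.67 in Ima_150 (1.60-fold lower, SE 0.15, adjusted p = 0.00189). Its log2 fold changes in Pona_3 and L-NAME were -0.43 (adjusted p = 0.286) and -0.41 (adjusted p = 0.0594). The groups that were not called had 583, 783 and 1206 CPM in Nilo_10, 604, 797 and 1196 CPM in Nilo_30, 599.5, 723 and 888 CPM in Pona_3 and 514, 696 and 1045 CPM in L-NAME, and each overlapped with control.

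Ppt1, a thioesterase that removes palmitate from proteins, had 27.3, 45.5 and 52.2 CPM in control, 25.8, 31.6 and 41.7 CPM in Ima_150 and 23.0, 32.5 and 46.0 CPM in Pona_10. The groups overlapped, and the lowest control mouse stood apart from the other 7. Ppt1 fell by 0.42 in both groups (SE 0.14 each, adjusted p = 0.0433 and 0.0366), and 11 of the 56 fits without 1 mouse lost each call. The Ima_150 call was also lost in the fit without L-NAME and without the filter on low counts. The Pona_10 call was also lost in the fit of Pona_10 and control alone. The groups without a call had 27.9, 39.7 and 48.4 CPM in Nilo_10, 24.5, 39.8 and 48.3 CPM in Nilo_30, 30.1, 38.9 and 50.2 CPM in Pona_3 and 31.1, 37.2 and 44.5 CPM in L-NAME.

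Lipa, the lysosomal acid lipase that hydrolyses cholesteryl esters and triglycerides, had 261, 338 and 425 CPM in control, 158, 197 and 377 CPM in Pona_10 and 170.3, 223 and 290.5 CPM in L-NAME. In Pona_10, 6 of 8 mice and in L-NAME, 7 of 8 mice were below all control mice. Lipa fell by 0.63 in Pona_10 (SE 0.16, adjusted p = 0.00483) and by 0.62 in L-NAME (SE 0.16, adjusted p = 0.0063). In Ima_150 it had 179, 219.6 and 392 CPM and a log2 fold change of -0.45 that did not pass the test (adjusted p = 0.0567), with 6 of 8 mice below all control mice. In the other 3 groups the log2 fold changes were between -0.37 and -0.29 with no call. Their values were 178, 281 and 364 CPM in Nilo_10, 212, 264 and 329 CPM in Nilo_30 and 219, 265 and 425 CPM in Pona_3.

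Npc1, the membrane transporter that moves cholesterol out of the lysosome, showed another order of the groups. It had 142, 247 and 297 CPM in control, 106, 135 and 144 CPM in Nilo_30 and 145, 163 and 226 CPM in Nilo_10. In Nilo_30, 7 of 8 mice were below all control mice, and the group lay within a narrow range. Npc1 fell by 0.88 on the log2 scale in Nilo_30 (1.83-fold lower, SE 0.14, adjusted p = 9.52e-05), a call kept in all 10 alternative fits.

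Npc1 also fell in L-NAME, which had 129, 172 and 226 CPM, by 0.43 (SE 0.14, adjusted p = 0.0344). That call was lost in 9 of the 56 fits without 1 mouse and with upper-quartile size factors. The log2 fold changes were -0.42 in Nilo_10 (adjusted p = 0.109), -0.37 in Pona_10 (adjusted p = 0.0664), -0.35 in Ima_150 (adjusted p = 0.105) and 0.16 in Pona_3 (adjusted p = 0.773). Besides Nilo_10, these groups had 143, 185 and 217 CPM in Ima_150, 193, 267 and 308 CPM in Pona_3 and 95.0, 169.9 and 292 CPM in Pona_10. Npc2, Asah1 (acid ceramidase) and Smpd1 (acid sphingomyelinase) passed the test in no group.

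**Figure D3:**
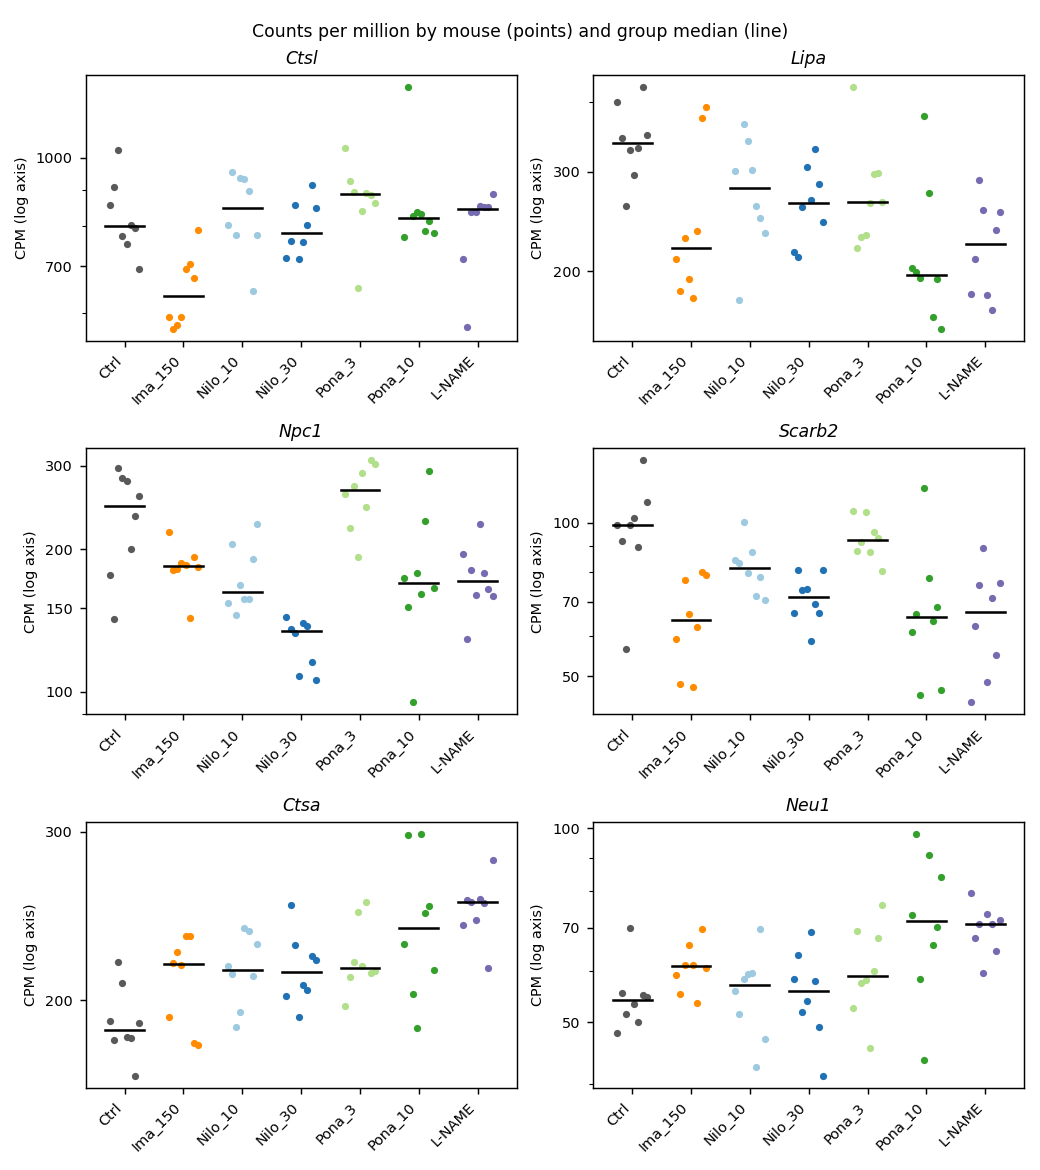
CPM (log axis) of Ctsl, Lipa, Npc1, Scarb2, Ctsa and Neu1 in each of the 56 mice (points), with the median of each group of 8 as a line. Npc1 is lowest in Nilo_30, Ctsl is low in Ima_150 and not in Pona_10, and Ctsa and Neu1 have higher medians in Pona_10 and L-NAME than in control.

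Scarb2, which encodes the membrane protein that carries β-glucocerebrosidase to the lysosome, passed the test in 4 groups, each time lower than control. It had 56.6, 99.0 and 132 CPM in control, 47.6, 64.4 and 80.0 CPM in Ima_150, 58.6, 71.5 and 80.8 CPM in Nilo_30, 46.1, 65.3 and 117 CPM in Pona_10, and 44.5, 66.9 and 89.4 CPM in L-NAME. Every group overlapped with control, whose lowest mouse was below the others. The log2 fold changes were -0.59 in Ima_150 (SE 0.14, adjusted p = 0.00433), -0.45 in Nilo_30 (SE 0.14, adjusted p = 0.0425), -0.51 in Pona_10 (SE 0.14, adjusted p = 0.0103) and -0.58 in L-NAME (SE 0.14, adjusted p = 0.004). The call in Nilo_30 was lost in 10 of the 56 fits without 1 mouse. It was also lost with RLE or upper-quartile size factors and without the filter on low counts. The call in Pona_10 was lost in the fit of Pona_10 and control alone. In the 2 groups without a call Scarb2 had 70.6, 81.4 and 100.2 CPM in Nilo_10 and 80.3, 92.3 and 105 CPM in Pona_3.

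The 2 major glycoproteins of the lysosomal membrane moved little. Lamp1 had 604, 651 and 689 CPM in control, 537, 577 and 588 CPM in Ima_150 and 480.5, 516 and 672 CPM in Pona_10. All 8 Ima_150 mice were below all control mice, as for 0.433% of all tested genes, yet the log2 fold change of -0.19 missed the threshold (adjusted p = 0.1). In Pona_10, Lamp1 fell by 0.23 on the log2 scale (SE 0.08, adjusted p = 0.0374), and 9 of the 56 fits without 1 mouse lost that call. It was also lost in the fit of Pona_10 and control alone, with RLE size factors and without the filter on low counts. The other groups overlapped with control, with 568, 615 and 677 CPM in Nilo_10, 569.6, 619 and 698 CPM in Nilo_30, 559, 612 and 661 CPM in Pona_3 and 516, 563 and 658 CPM in L-NAME.

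Lamp2 had 628, 714 and 747 CPM in control and 485, 566 and 681 CPM in L-NAME, with 7 of 8 L-NAME mice below all control mice. Its log2 fold change there was -0.31 (adjusted p = 0.0551), and it passed the test in no group. The other groups had 497, 540.1 and 867 CPM in Ima_150, 477, 574 and 828 CPM in Nilo_10, 480.3, 631 and 699.9 CPM in Nilo_30, 583, 657 and 788 CPM in Pona_3 and 493, 583 and 811 CPM in Pona_10. Cd63, a tetraspanin of late endosomes, had medians between 3.48 CPM in Pona_3 and 10.9 CPM in Nilo_10 and a wide spread within groups, and was not called. Laptm4a, a transmembrane protein of late endosomes, and Mcoln1, the lysosomal calcium channel, were not called either.

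The proton pump subunits Atp6v0d1 and Atp6v1h had log2 fold changes between -0.24 and 0.06 over the 6 groups and were not called in any. In Ima_150 the 95% intervals of these differences ran from -0.16 to 0.28 for Atp6v0d1 and from -0.24 to 0.29 for Atp6v1h.

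Tfeb, the transcription factor of lysosomal biogenesis, had the lowest level of the 32 members per kilobase. It had 6.26, 9.94 and 14.7 CPM in control, 4.86, 10.8 and 16.3 CPM in Ima_150, 7.62, 12.4 and 21.8 CPM in Pona_10 and 9.92, 15.2 and 19.1 CPM in L-NAME. The other groups had 6.41, 11.9 and 16.6 CPM in Nilo_10, 8.68, 10.1 and 23.3 CPM in Nilo_30 and 6.22, 12.5 and 17.4 CPM in Pona_3, and all 6 overlapped with control. The log2 fold changes were 0.11 in Ima_150 (SE 0.23, adjusted p = 0.834), 0.33 in Pona_10 (SE 0.23, adjusted p = 0.389) and 0.54 in L-NAME (SE 0.23, adjusted p = 0.114), where 5 of 8 mice were above all control mice. Its RNA level says nothing of the protein's place in the cell, through which TFEB is known to be regulated.

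TFEB binds E-boxes of the form CACGTG. RefSeq promoters (GRCm38.p6) were matched for 27 of the 32 members, and in the 250 bases before the start the palindrome CACGTG was found in 7 of these 27 genes (Ctsa, Ctsd, Ctsl, Glb1, Lamp1, Mcoln1 and Naglu), in 6.02% of all 32851 promoters of that length, and before at least 1 start of 6.86% of all 27025 genes. The longer form TCACGTGA, which contains it, was found in Ctsa, Ctsd and Mcoln1, in 0.785% of all promoters and in 0.907% of all genes. Ctsa has a second annotated promoter, which holds no CACGTG. These 3 promoters and that of Lamp1, which holds 4 copies of the shorter form, are shown because they carry the E-box while their genes did not move together. The capitals mark CACGTG, which reads the same on both strands. They are chr2:164833523-164833772 (forward strand), chr7:142387828-142388077 (reverse), chr8:3500269-3500518 (forward) and chr8:13158911-13159160 (forward), each written 5′ to 3′ towards the start.
Ctsa: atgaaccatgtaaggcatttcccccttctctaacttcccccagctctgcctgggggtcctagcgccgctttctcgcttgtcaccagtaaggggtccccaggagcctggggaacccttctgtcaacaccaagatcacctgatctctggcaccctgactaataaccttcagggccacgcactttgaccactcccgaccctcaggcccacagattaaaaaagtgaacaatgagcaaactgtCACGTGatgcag
Ctsd: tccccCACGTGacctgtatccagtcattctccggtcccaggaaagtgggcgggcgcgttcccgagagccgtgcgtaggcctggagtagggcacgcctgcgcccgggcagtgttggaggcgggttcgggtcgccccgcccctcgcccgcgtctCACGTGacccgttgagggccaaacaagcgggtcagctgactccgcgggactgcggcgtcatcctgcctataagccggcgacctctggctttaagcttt
Mcoln1: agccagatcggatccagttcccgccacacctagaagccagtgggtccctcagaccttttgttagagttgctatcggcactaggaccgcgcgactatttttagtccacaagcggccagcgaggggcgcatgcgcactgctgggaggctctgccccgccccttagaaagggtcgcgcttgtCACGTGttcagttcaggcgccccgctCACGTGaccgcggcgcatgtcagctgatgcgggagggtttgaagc
Lamp1: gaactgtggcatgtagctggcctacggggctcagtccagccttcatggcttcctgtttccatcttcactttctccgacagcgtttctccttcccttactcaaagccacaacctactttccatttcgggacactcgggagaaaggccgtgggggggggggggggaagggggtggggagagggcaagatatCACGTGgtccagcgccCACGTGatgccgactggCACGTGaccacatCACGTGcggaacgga

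Of the 7 genes with CACGTG, Ctsa rose in Pona_10 and L-NAME, Ctsd and Lamp1 fell in Pona_10, Ctsl fell in Ima_150, and Glb1, Mcoln1 and Naglu passed the test in no group. A match describes these letters in this window and not binding.

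Ctss and Gpnmb, which had the 2 largest differences in Ima_150, held no CACGTG in the same window. The core GAGGAA, searched on both strands, which is bound by the macrophage factor PU.1, was found once before Ctss, in 8 of the 27 members, in 23.3% of all promoters and in 25.9% of all genes, and not before Gpnmb. The capitals mark it in the promoter of Ctss (chr3:95526536-95526785, forward strand), and the promoter of Gpnmb (chr6:49036268-49036517, forward strand) holds neither motif.
Ctss: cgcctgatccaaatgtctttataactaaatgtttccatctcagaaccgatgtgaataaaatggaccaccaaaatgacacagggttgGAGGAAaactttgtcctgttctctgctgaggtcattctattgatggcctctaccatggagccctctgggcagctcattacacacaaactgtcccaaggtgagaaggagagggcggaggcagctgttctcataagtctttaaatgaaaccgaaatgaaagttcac
Gpnmb: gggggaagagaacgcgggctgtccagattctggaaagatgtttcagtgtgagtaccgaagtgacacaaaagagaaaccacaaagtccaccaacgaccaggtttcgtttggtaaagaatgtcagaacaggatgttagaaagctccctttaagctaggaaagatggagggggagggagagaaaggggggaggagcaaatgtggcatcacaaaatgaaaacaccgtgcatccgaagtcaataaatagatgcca

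Beyond the 32 members, 92 further genes of the pathway were listed, of which 91 were tested. In Ima_150, 13 fell and 6 rose, in Pona_10, 12 fell and 7 rose, and in L-NAME, 10 fell and 6 rose. In Nilo_30, 3 fell and 4 rose, in Nilo_10, 1 fell, and in Pona_3 none passed the test. The shares that fell were 14.3% in Ima_150, 13.2% in Pona_10, 11.0% in L-NAME and 3.3% in Nilo_30, beside 4.58, 5.87, 6.24 and 3.43% of all genes. The shares that rose, 6.59, 7.69, 6.59 and 4.4%, stood beside 5.69, 7.24, 5.55 and 2.34% of all genes, and those of Ima_150, Pona_10 and L-NAME were close to them, as was the share that fell in Nilo_30. Among 31 further hydrolases and activators, 7 fell in Ima_150, 4 in Pona_10, 4 in L-NAME and 1 in Nilo_30, and none rose. Man2b1, the lysosomal α-mannosidase, fell by 0.48 in Ima_150 (SE 0.10, adjusted p = 0.000981) and 0.50 in Pona_10 (SE 0.10, adjusted p = 0.00038). In L-NAME, Arsb, a sulfatase, fell (-0.79, SE 0.21, adjusted p = 0.00678), as did Gaa, the acid α-glucosidase (-0.30, SE 0.10, adjusted p = 0.0274). Among 13 tested membrane proteins and transporters, Laptm5 fell in Ima_150 (-1.14, SE 0.24, adjusted p = 0.00128) and the transporter Abca2 fell in Nilo_10 (-0.83, SE 0.21, adjusted p = 0.0241).

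The further pump subunits moved in both directions. Of 15, 4 fell and 2 rose in Ima_150, and 5 fell and 3 rose in Pona_10. Atp6v0d2, a subunit found in macrophages and osteoclasts, fell by 1.33 in Ima_150 (SE 0.37, adjusted p = 0.0127) and 1.48 in Pona_10 (SE 0.37, adjusted p = 0.00401), whereas its paralogue Atp6v0d1 was not called. Atp6v1a fell by 0.59 in Ima_150 (SE 0.15, adjusted p = 0.00783) and Atp6v1f rose by 0.63 (SE 0.14, adjusted p = 0.00211). Atp6v1a also fell in Nilo_30, Pona_10 and L-NAME, and Atp6v1f rose in Pona_10 and L-NAME. Atp6v0b rose in the same 4 groups as Atp6v1a fell, most in L-NAME (0.53, SE 0.11, adjusted p = 0.000791), Atp6v1g1 rose in Nilo_30 and Pona_10, Atp6v1b2 fell in Ima_150 and Pona_10, and Atp6v1c1 fell in Pona_10 and L-NAME.

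Igf2r, the receptor that sorts newly made hydrolases to the lysosome, fell in 4 groups, by 0.81 in Ima_150, 0.55 in Nilo_30, 0.54 in Pona_10 and 0.60 in L-NAME (SE 0.16 each, adjusted p = 0.000615, 0.0266, 0.0183 and 0.00824). Among 14 regulators, Lamtor2, a subunit of the complex that anchors mTORC1 signalling at the lysosome, rose in the same 4 groups by 0.50, 0.40, 0.55 and 0.50 (SE 0.12 each, adjusted p = 0.00366, 0.0342, 0.00115 and 0.00328). Lamtor4 rose in Ima_150, Pona_10 and L-NAME and Lamtor1 in Nilo_30 and L-NAME, while the Rag GTPase genes Rraga (Pona_10 and L-NAME) and Rragc (L-NAME) fell. Of 12 autophagy genes, Map1lc3a rose in Ima_150, Gabarap rose in Ima_150 and Pona_10, and Atg7 fell in Pona_10 and L-NAME.

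Some markers of macrophages were lower in the Ima_150 group than in control. Of 10 Kupffer cell markers, 3 fell and none rose, where 4.58% of all genes fell and 5.69% rose: Cd5l by 1.23 on the log2 scale (SE 0.23, adjusted p = 0.000245), Adgre1 by 1.35 (SE 0.36, adjusted p = 0.01) and Csf1r by 0.76 (SE 0.25, adjusted p = 0.0386). Clec4f and Vsig4 had log2 fold changes of 0.17 (adjusted p = 0.652) and -0.25 (adjusted p = 0.559) in the same mice. Of 10 markers of recruited myeloid cells, 3 fell in Ima_150, Lyz2, Trem2 and Itgax. In each of these 2 lists the other 7 genes were not called. By sign, 8 Kupffer cell markers were negative and 2 positive (up to 0.17), and 7 recruited cell markers were negative and 3 positive (up to 0.11). The summed level of the 10 Kupffer cell markers was 964 to 1830 CPM in control and 600 to 1203 CPM in Ima_150 (two-sided exact permutation test on 8 and 8 mice, p = 0.00109), and that of the recruited cell markers was 204 to 614 CPM in control and 156 to 305 CPM in Ima_150 (exact permutation p = 0.00699).

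In Pona_10 the same markers gave another picture. The summed Kupffer cell level ran from 555 to 2793 CPM (exact permutation p = 0.678), the recruited cell level from 184 to 628 CPM (p = 0.192), and 2 of 10 Kupffer cell markers rose, where 7.24% of all genes did, Clec4f (log2 fold change 0.61, SE 0.19, adjusted p = 0.0216) and Marco. No Kupffer cell marker passed the test as lower in Pona_10, where 5 had negative differences (down to -0.62) and 5 positive ones (up to 2.32). Of the 10 recruited cell markers none was called, 7 were negative (down to -1.69) and 3 positive (up to 1.56), with a median of -0.35. The part of these cells in the falls of Gpnmb, Cd68, Ctss and Psap in Pona_10 was not tested. Among markers of other liver cells, none of 8 sinusoidal endothelial, 6 lymphocyte and 4 cholangiocyte genes passed the test against control in any group. Yet all 8 endothelial genes had negative differences in Pona_3 (median -0.55) and Pona_10 (median -0.43). In each nilotinib group 7 of them were positive, and in Ima_150 and L-NAME 5 were. All 6 lymphocyte genes were negative in Pona_3 (median -0.31) and positive in L-NAME (median 0.84). Of 8 stellate cell genes, Col1a1 fell in Ima_150, Pona_3 and Pona_10, while Ecm1 rose in Ima_150 and Pona_10. Of 8 hepatocyte genes, Cps1 fell in 5 groups and Tat in 4, Hnf4a fell in Nilo_30 and L-NAME, and Ttr rose in Ima_150 and Pona_10. Clec4f also rose in Nilo_30 (0.64, SE 0.19, adjusted p = 0.0282) and L-NAME (0.69, SE 0.19, adjusted p = 0.00884).

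Within groups, 11 of the 32 members rose with the summed Kupffer cell marker level of a mouse and none fell, where 2.89% of all genes rose and 1.12% fell with it. The steepest was Gpnmb, with 1.53 log2 units per doubling of the marker level (SE 0.46, adjusted p = 0.0416), followed by Ctss with 0.96 (SE 0.13, adjusted p = 6.98e-08) and Cd68 with 0.92 (SE 0.11, adjusted p = 2.39e-09). Gusb, Asah1, Ctsd, Hexa, Psap, Grn, Ctsb and Ppt1 had slopes between 0.27 and 0.52. Scarb2 (0.14, adjusted p = 0.566), Lipa (0.04, adjusted p = 0.945) and Npc1 (-0.17, adjusted p = 0.381) did not pass this test.

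With the marker level as a term in the fit, 2 members remained called in Ima_150, Gpnmb (log2 fold change -3.67, adjusted p = 0.0028) and Ctss (-0.89, adjusted p = 0.0113), where 1.73% of all genes were lower. The sizes of the 7 others moved unequally. Cd68 went from -0.80 to -0.14 (adjusted p = 0.77) and Psap from -0.67 to -0.43 (adjusted p = 0.0731), while Scarb2 went from -0.59 to -0.49 (adjusted p = 0.0551) and Ctsl from -0.35 to -0.31 (adjusted p = 0.0918). Ctsb had -0.25, Gusb -0.39 and Ppt1 -0.23. In Pona_10 the same term kept all 13 calls, with Cd68 at -0.85 and Psap at -0.83, and Npc1 (-0.39, adjusted p = 0.0443) and Hexa (-0.35, adjusted p = 0.0421) were called in addition, where 6.15% of all genes were lower and 7.1% higher. The mean marker level was close in Pona_10 (1403 CPM) and control (1362 CPM), so this term could change the Pona_10 differences little. Kept calls there are therefore no test of macrophage number. In Ima_150 the marker level is RNA that was itself lower than in control, so this fit cannot tell macrophage number from RNA per cell. The part of macrophage number was not tested in Ima_150 or in Pona_10.

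**Figure D4:**
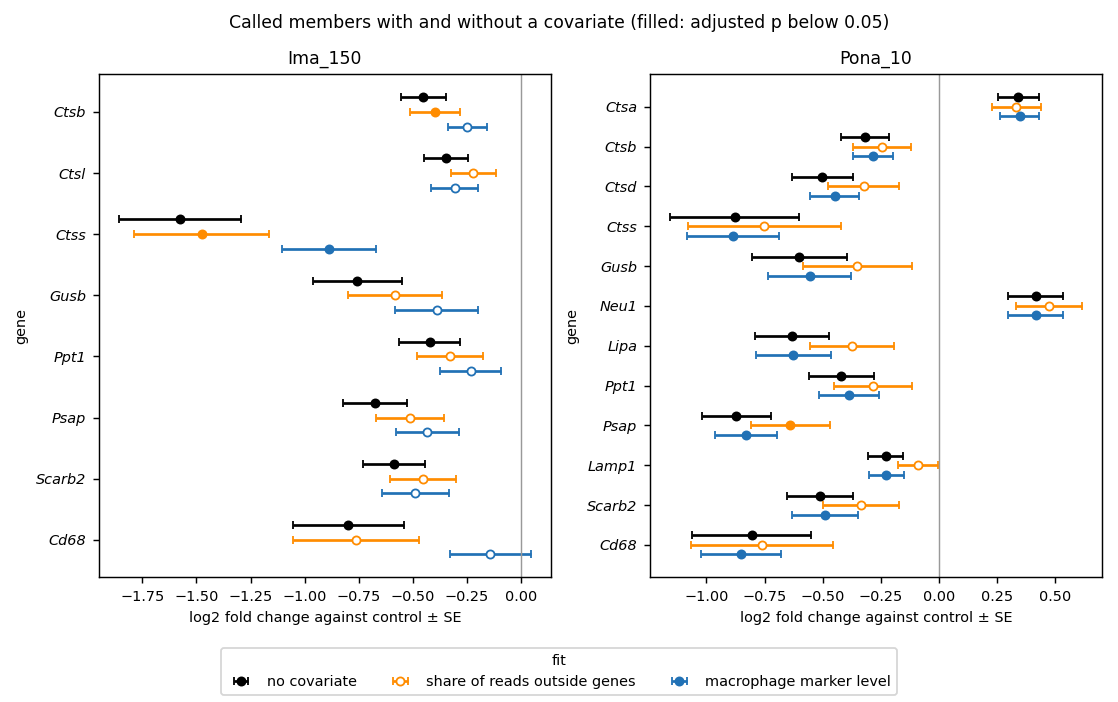
Log2 fold change against control with its SE for the members called in Ima_150 (left) and Pona_10 (right), Gpnmb left out for scale, in 3 fits: without a covariate (black), with the share of reads outside genes (orange) and with the Kupffer cell marker level (blue). Filled points have an adjusted p below 0.05. In Ima_150 the blue point of Cd68 lies at -0.14, and in Pona_10 the orange points are open for every gene shown but Psap.

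The share of reads outside genes ended more calls. Within groups, 28 of the 32 members had a negative slope with this share, with a median of -0.26 log2 units per doubling, beside 48.0% of all genes below 0 and a median of 0.02. No member passed the test for that slope, where 0.314% of all genes had a positive and 0.384% a negative slope. With the share as a term in the fit, 3 members remained called in Ima_150 (Gpnmb, Ctss and Ctsb), where 1.31% of all genes were lower. In Pona_10, 2 remained (Gpnmb with -3.84 and Psap with -0.64), where 0.321% of all genes were lower, against 5.87% without the term. In Nilo_30, 1 remained (Npc1 with -0.76), beside 0.224% of all genes, and in Pona_3, 1 (Gpnmb), beside 0.0419%.

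None was called in L-NAME with this term, where 0.279% of all genes were lower and 0.279% higher, against 6.24% and 5.55% without it. The rises in L-NAME kept their size, with Ctsa at 0.38 (adjusted p = 0.0663), Ctsz at 0.38 (adjusted p = 0.109) and Neu1 at 0.41 (adjusted p = 0.17). The falls were smaller, with Lipa at -0.36, Scarb2 at -0.39 and Npc1 at -0.30. No called difference against control changed its direction with either term, and the plot of fits with and without a covariate shows the values in Ima_150 and Pona_10 of the called members other than Gpnmb. As all 8 mice of 4 treated groups had a higher share than any control mouse, treatment and share cannot be told apart in those groups beyond this fit.

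Only ponatinib and nilotinib at 10 mg/kg could be compared at the same dose by weight and the same schedule. Their plasma exposure was not matched. The study calculated a larger area under the plasma curve for nilotinib than for ponatinib at that dose. In Pona_10 against Nilo_10, 4 members were lower and none was higher, where 1.03% of all genes were lower and 1.03% higher. Gpnmb was lower by 4.45 on the log2 scale (SE 0.77, adjusted p = 0.000714), with all 8 Pona_10 mice below all Nilo_10 mice, as for 0.0559% of all genes. Psap was lower by 0.68 (SE 0.15, adjusted p = 0.00874), Cd68 by 0.99 (SE 0.26, adjusted p = 0.0238) and Ctsd by 0.50 (SE 0.13, adjusted p = 0.0238). Ctss had -0.93 (95% interval -1.49 to -0.37, adjusted p = 0.0556) and Npc1 0.04 (95% interval -0.24 to 0.32).

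Markers of other cells moved in the same comparison. Of 8 sinusoidal endothelial markers, 3 were lower in Pona_10 than in Nilo_10 (Stab2, Clec4g and Fcgr2b), all 8 had a negative difference (median -0.83), and their summed level was 94.6 to 311 CPM in Pona_10 and 326 to 438 CPM in Nilo_10. Lower, too, were 2 of 8 stellate cell markers (Lrat and Col1a1) and 1 of 10 recruited myeloid markers (Ccr2), while no Kupffer cell marker was called. The part of these cells in the 4 differences was not tested.

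In the other pairs the doses or schedules differed, and these values stand side by side with no reading of 1 compound against another at the same dose. Against Nilo_30, 5 members were lower and 1 higher in Ima_150, where 2.38% and 1.22% of all genes were, and 5 lower and 1 higher in Pona_10, where 0.957% and 0.922% were. Gpnmb, Cd68 and Ctss were lower than in Nilo_30 in both. Gpnmb differed by -4.36 (SE 0.78, adjusted p = 0.000357) in Ima_150 and by -4.02 (SE 0.76, adjusted p = 0.00174) in Pona_10. Npc1 was the member that was higher, by 0.53 in Ima_150 (SE 0.14, adjusted p = 0.0189) and 0.50 in Pona_10 (SE 0.14, adjusted p = 0.0421). Ctsb and Gusb were also lower in Ima_150, by 0.45 (SE 0.10, adjusted p = 0.00609) and 0.85 (SE 0.21, adjusted p = 0.00861), and Psap and Ctsd in Pona_10, by 0.67 (SE 0.15, adjusted p = 0.00857) and 0.52 (SE 0.13, adjusted p = 0.0203). In the same comparisons, 4 of 10 Kupffer cell markers were lower in Ima_150 than in Nilo_30, and 4 of 8 sinusoidal endothelial markers were lower in Pona_10 than in Nilo_30. With the Kupffer cell marker level in the fit, no member was called between Ima_150 and Nilo_30, where 0.0349% of all genes were higher and none lower.

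Ima_150 and Pona_10 differed in 1 member, Ctsl, which was 0.41 lower in Ima_150 (SE 0.10, adjusted p = 0.0223, 7 of 8 mice below all Pona_10 mice), beside 0.356% of all genes that were lower and 0.72% that were higher. This call was lost without Pona_10 replicate 2, which stood apart at 1264 CPM, or without Ima_150 replicate 2 or 3, as well as in the fit of the 2 groups alone and with the Kupffer cell marker level (-0.37, adjusted p = 0.0958). For Gpnmb the difference was -0.35 with a 95% interval of -1.92 to 1.23, for Cd68 0.01 (-0.51 to 0.53) and for Psap 0.20 (-0.10 to 0.50). Differences of these sizes cannot be told from none here. For Ctss it was -0.70, and its interval, not adjusted for the number of genes, was negative throughout (-1.25 to -0.14). Ctss did not pass the test over all genes (adjusted p = 0.285).

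Between doses, Pona_10 had 1 member lower than Pona_3, Npc1, by 0.53 (SE 0.14, adjusted p = 0.0359), where 0.419% of all genes were lower and 0.971% higher. This call was lost in 10 of the 56 fits without 1 mouse, in the fit of the 2 groups alone, without the filter on low counts, and with the share of reads outside genes (-0.43, adjusted p = 0.462). Gpnmb differed by -0.81 between the 2 ponatinib doses (95% interval -2.29 to 0.68), Psap by -0.45 (-0.74 to -0.15, adjusted p = 0.113) and Scarb2 by -0.45 (-0.73 to -0.16, adjusted p = 0.0936). Between Nilo_30 and Nilo_10 no member and none of all 14314 genes passed edgeR's test (0 members in DESeq2), and 1 member had an unadjusted p below 0.01, beside 1.32% of all genes. That member was Npc1 (log2 difference -0.46, 95% interval -0.74 to -0.18), which was lower in all 8 Nilo_30 mice than in any Nilo_10 mouse, as were 0.0349% of all genes.

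Some members share exonic sequence with another annotated gene, so that reads in the shared part may have been left uncounted. In the GENCODE vM21 annotation this holds for Ctsa, Ctsb, Ctsd, Ctsl, Ctsz, Glb1, Hexa, Npc1, Ppt1, Lamp1, Atp6v1h and Grn. It does not hold for Gpnmb, Cd68, Ctss, Psap, Scarb2, Lipa, Neu1 or Gusb.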

How the data were processed

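RNA of 56 livers was sequenced after poly(A) selection (NEBNext Ultra kit). The submitters' processing notes name TopHat2 2.0.14, Bowtie2 2.1.0, SAMtools 0.1.18 and HTSeq 0.6.1p1 with GRCm38, and the authors deposited raw read counts per Ensembl gene for each mouse. The strand setting is not given in the sources used here, and 12 members overlap exons of another gene. The 5 HTSeq summary rows were kept out of library totals, and reads outside genes were 7.55 to 16.8% (median 9.58%) and ambiguous reads 2.01 to 3.65% of assigned, ambiguous and outside reads. Symbols came from GENCODE vM21, which held no symbol for 928 of 45513 identifiers.

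Counts were analysed in R 4.3.3 with edgeR 4.0.16: filtering on low counts (14314 genes kept), TMM scaling, a quasi-likelihood fit of all 7 groups and Benjamini-Hochberg adjustment over all tested genes. The standard error was the log2 fold change divided by the root of the F statistic. The 95% intervals came from it and a quantile of the t distribution (scipy 1.17.1). The fit was tested on simulated data. Alternatives were other size factors, DESeq2 1.42.0, limma 3.58.1 (voom, with and without sample weights), no filter, fits of the 2 groups alone or without L-NAME, other thresholds, the covariates described, and leaving out each mouse. Exact permutation tests were two-sided, and 0.000155 is the smallest p they can give for 8 against 8. Intervals reflect the spread between these mice. No batch or date is in the labels.

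The 32 members and all gene lists, motifs and promoters shown were chosen with earlier results of these data known. Values by mouse are given in all groups for members called against control in at least 2 groups, and for Gpnmb, Cd68, Ctss, Ctsl, Lamp1, Lamp2, Lipa, Npc1 and Tfeb. In each comparison with control the 5 called members of smallest adjusted p in each direction are named, and of the other lists the 2 called genes of smallest adjusted p in each direction, except 1 that is not reported here. Clec4f, Vsig4, Adgre1, Csf1r and Cd5l were named in any case, and other names were chosen after their values were seen.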

Additional observations from a re-analysis of the deposited data

Results flagged for a closer look

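Within groups of 8 mice, 1 mouse stood apart from the other 7 by Dixon's criterion for 7 of the 112 combinations of gene and group examined (6.25%), where chance marks about 1 in 20. Ctsl reached 1264 CPM in Pona_10 replicate 2, and the next mouse had 836 CPM. Neu1 was at 70.1 CPM in control replicate 4, with the next at 55.4 CPM, and in the same mouse Ppt1 was lowest at 27.3 CPM, with the next at 43.5 CPM. Lipa reached 425 CPM in Pona_3 replicate 1, against 299 CPM in the next mouse. Scarb2 was at 117 CPM in Pona_10 replicate 4, against 77.9 CPM. Gpnmb was at 44.4 CPM in Pona_3 replicate 5, against 10.7 CPM. Tfeb was at 23.3 CPM in Nilo_30 replicate 2, against 12.8 CPM.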

How the results depend on the processing

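None of the 31 called differences between a member and control changed direction under the alternatives run. Of all 192 differences of members from control, 20 changed sign with the share of reads outside genes and 20 with the Kupffer cell marker level, and none of these was called without the term. Numbers of called members that moved by more than 1.5 times were as follows. With the share of reads outside genes, 3 were called in Ima_150, 1 in Nilo_30, 2 in Pona_10, 0 in L-NAME and 0 between Pona_10 and Pona_3. Of all 14314 genes, that fit called 255 higher and 188 lower in Ima_150, 15 and 32 in Nilo_30, and 95 and 46 in Pona_10. It called 40 and 40 in L-NAME, and 0 and 0 between Pona_10 and Pona_3. With the Kupffer cell marker level, 2 were called in Ima_150, 0 between Ima_150 and Nilo_30, 0 between Ima_150 and Pona_10, and 2 each for Pona_10 against Nilo_30 and Nilo_10. The genes called higher and lower in that fit were 351 and 247 in Ima_150, 5 and 0 against Nilo_30, and 52 and 15 against Pona_10. For Pona_10 they were 54 and 47 against Nilo_30, and 55 and 43 against Nilo_10. With only the 2 groups compared, 0 were called in Pona_3, 7 in Pona_10, 0 between Pona_10 and Pona_3, 0 between Ima_150 and Pona_10, 2 for Pona_10 against Nilo_30 and 1 against Nilo_10. In the same order, the genes called higher and lower were 0 and 0 of 12665, 1009 and 679 of 12681, and 25 and 7 of 12464. The last 3 fits called 60 and 13 of 12420, 63 and 63 of 12649, and 28 and 20 of 12599. DESeq2 called 7 for Pona_10 against Nilo_10, beside 250 genes higher and 252 lower of 14314. RLE factors, upper-quartile scaling and no filter each left 1 in Nilo_30, and no filter 0 between Pona_10 and Pona_3. In Nilo_30 these fits called 378, 399 and 287 genes higher and 463, 427 and 420 lower. Without the filter, 66 of 24040 genes were higher and 34 lower in Pona_10 than in Pona_3. Voom called 0 in Pona_3 and 3 between Pona_10 and Pona_3, beside 0 and 0 genes, and 92 and 91 genes, called higher and lower. Voom with weights called 17 in Ima_150, 3 in Nilo_10, 0 in Pona_3, 10 in L-NAME, 5 between Pona_10 and Pona_3, 12 for Pona_10 against Nilo_30 and 2 against Nilo_10. Of all 14314 genes it called 1624 higher and 1703 lower in Ima_150, 490 and 750 in Nilo_10, and 310 and 261 in Pona_3. It called 1859 and 1878 in L-NAME. For Pona_10 it called 436 and 559 against Pona_3, 401 and 361 against Nilo_30, and 199 and 132 against Nilo_10. At an adjusted p below 0.01, 5 were called in Ima_150, 1 in Nilo_30, 0 in Pona_3, 5 in Pona_10, 0 between Pona_10 and Pona_3, 0 between Ima_150 and Pona_10, 3 for Pona_10 against Nilo_30 and 2 against Nilo_10. Counts over all genes at this threshold are not given here. At an unadjusted p below 0.01, 1 was called in Nilo_10, 2 in Pona_3, 4 between Pona_10 and Pona_3, 1 between Nilo_30 and Nilo_10, 10 for Ima_150 and 10 for Pona_10 against Nilo_30, and 9 for Pona_10 against Nilo_10. In the same order, the genes higher and lower of 14314 were 332 and 523, 200 and 249, 448 and 380, and 98 and 91. The last 3 comparisons had 427 and 653, 398 and 409, and 525 and 439. The cause of these shifts was not tested.

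Leaving out 1 mouse at a time gave 7 to 12 called members in Ima_150, 0 to 0 in Nilo_10, 1 to 2 in Nilo_30, 0 to 1 in Pona_3, 7 to 15 in Pona_10 and 4 to 8 in L-NAME. It gave 0 to 3 between Pona_10 and Pona_3, 0 to 0 between the nilotinib doses, 5 to 7 for Ima_150 against Nilo_30, 0 to 1 against Pona_10, 3 to 8 for Pona_10 against Nilo_30 and 2 to 6 against Nilo_10. Of 31 calls against control, 19 were kept whichever mouse was left out. The Pona_10 count was 7 without control replicate 6 and 8 without control replicate 1, Pona_10 replicate 3 or Pona_10 replicate 6. The count for Pona_10 against Nilo_30 was 3 without Nilo_30 replicate 7, and that against Nilo_10 was 2 without Nilo_10 replicate 5, Nilo_10 replicate 6 or Pona_10 replicate 8. Ctsl was not called between Ima_150 and Pona_10 without Pona_10 replicate 2, Ima_150 replicate 2 or Ima_150 replicate 3.

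Some calls ended without any 1 of several mice, here with the highest adjusted p in edgeR. In Ima_150 these were Ppt1 (control 1, 2, 3, 5, 6, 7, 8 and Ima_150 1, 3, 4, 8, p up to 0.0934) and Cd68 (control 1, 2, 6, 7 and Ima_150 1, 2, 3, 7, 8, 0.0757). In Nilo_30 it was Scarb2 (control 1, 4, 5, 7, 8 and Nilo_30 1, 3, 5, 6, 7, 0.12), and in Pona_3 Gpnmb (control 1, 2, 6 and Pona_3 2, 3, 4, 6, 7, 8, 0.108). In Pona_10 they were Ctsb (control 1, 2, 6 and Pona_10 3, 4, 6, 8, 0.0893), Ctss (control 1, 2, 6 and Pona_10 3, 6, 7, 0.0692), Gusb (control 1, 6, 8 and Pona_10 1, 3, 6, 7, 8, 0.109), Ppt1 (control 1, 2, 3, 5, 6, 7 and Pona_10 1, 3, 4, 5, 6, 0.0972), Lamp1 (control 1, 2, 6, 8 and Pona_10 1, 3, 5, 6, 8, 0.0904) and Cd68 (control 1, 6 and Pona_10 3, 6, 7, 8, 0.0696). In L-NAME they were Neu1 (control 1, 2, 3, 5, 6, 7, 8 and L-NAME 1, 2, 3, 5, 6, 8, 0.0888) and Npc1 (control 3, 4, 5, 7, 8 and L-NAME 2, 4, 7, 8, 0.0881). No paired analysis was possible because the mouse numbers in the labels are unique across the 56 mice.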
